A study of Mus musculus with 8 samples.

Results

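The endothelium of implanted and of spontaneous breast tumours was compared 3 h after cGAMP had been injected into the tumour. Cells were counted as tumour endothelial cells (ECs) when they held Pecam1 transcripts, which encode the sorting marker CD31, and transcripts of fewer than 2 of 6 genes of other cells. These 6 genes were Rgs5 and Pdgfrb of mural cells, Epcam and Krt8 of epithelium, and Ptprc and Tyrobp of leukocytes. By this rule 2925 of the 4201 cells deposited for the 4 cGAMP libraries were ECs, 1304 and 539 in the 2 implanted libraries and 511 and 571 in the 2 spontaneous ones. All 8 libraries together held 6371 such ECs among 8204 deposited cells. Since the rule used Pecam1 and the 6 other genes, their levels are given below as a description only.

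The spontaneous tumours arose in female MMTV-PyMT mice, in which the mammary tumour virus promoter drives the polyoma middle T oncogene in mammary epithelium, and treatment started at 9 weeks of age. The implanted tumours grew from tumour cells of such mice, which had been cultured for 2 days and then placed in the mammary fat pad of 8- to 9-week-old females without the transgene. Both models carried tumours driven by the same oncogene, but host age, tumour age and the passage through culture differed between them and cannot be told apart from the model. The tumours received 3′3′-cGAMP or PBS, and live ECs were sorted, for which the methods give a gate of CD31+ cells without the leukocyte marker CD45, with 2 mice in each of the 4 groups. The strain is not settled, since C57BL/6 stands in the labels of every library and FVB in the methods. The replicates were separate mice, so each p-value rests on the spread between 2 mice per group, and an exact permutation test of 2 against 2 could not go below p = 0.333.

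The selected ECs of the cGAMP libraries held 7059822 to 11060142 UMIs per library, and 3 UMIs, taken as the floor of detection, equalled 0.271 to 0.425 CPM, the count of a gene scaled to a fixed total per cell. In replicate 1 of implanted cGAMP the cells were shallow, with a median of 2776 UMIs per EC and 41.2% of its ECs under 2000 UMIs, against medians of 11801 to 13298 and shares of 3.91% to 8.41% in the other cGAMP libraries. Values are therefore given also without this library where they rest on it. A pair of libraries shared at most 3 cell barcodes. ECs of a lymphatic type made up 13.7% and 19.5% of ECs in the implanted cGAMP libraries and 6.65% and 5.78% in the spontaneous ones. They held transcripts of at least 2 of 10 genes of lymphatic and lymph node type ECs. These genes were Prox1, Lyve1, Mmrn1, Ccl21a, Reln, Fxyd6, Madcam1, Cyp1b1, Enpp2 and Glycam1. Dividing ECs made up 0.557% to 1.96% of ECs in the 4 libraries.

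cGAMP is a cyclic dinucleotide that binds STING, an adaptor of the endoplasmic reticulum (ER) that responds to DNA in the cytosol. STING recruits the kinase TBK1 and the transcription factor IRF3 and also engages NF-kB, so that type I interferon and inflammatory cytokines are made. Tumour ECs respond to interferon and tumour necrosis factor (TNF) by presenting antigen, attracting leukocytes and changing adhesion, coagulation and survival, and their vessels are shaped by vascular endothelial growth factor (VEGF), the angiopoietins and Notch. The comparison addresses the question of how the transcriptome of tumour ECs differs between the models under the same treatment.

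Between the models, 513 genes were higher and 785 lower in implanted tumour ECs after cGAMP, out of 10335 tested, that is 4.96% and 7.6% of genes. Of these, 155 and 116 differed at least 2-fold, and 32 and 12 at least 4-fold. Levels are means of CPM over the ECs of a library, and genes were called at an adjusted p under 0.05 (limma, all 8 libraries in 1 fit). Differences are given as log2 of implanted over spontaneous ± SE on the scale of log2(CPM + 1), with 2 libraries on each side. The split depended on the scaling, since median-of-ratios scaling called 651 genes higher and 512 lower, 56.0% of calls against 39.5% higher. The median over all tested genes was -0.06, which is the value to set beside the median of each gene list below. Leaving out replicate 2 of spontaneous cGAMP left 196 calls, and leaving out replicate 1 of that group 627. The fit of the 4 cGAMP libraries alone called 837, and 347 were called after every EC had been thinned to 1000 UMIs. In 2243 genes (21.7%) both implanted libraries lay above both spontaneous ones and in 3484 (33.7%) below.

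After PBS, in libraries that the cGAMP comparison does not share, 345 genes were higher and 420 lower in implanted tumour ECs (3.34% and 4.06%), with 490 and 259 under median-of-ratios scaling (65.4% of calls higher against 45.1%). Both comparisons took the residual variance of each gene from the same fit, so their calls are not independent. Without replicate 1 or 2 of spontaneous PBS 466 and 239 genes were called, and without replicate 1 or 2 of implanted PBS 284 and 372. Of the 513 genes higher after cGAMP 154 were also called higher after PBS, 4 were called lower and 355 were not called. Of the 785 lower genes 219 were also called lower after PBS and 566 were not called. The difference between the models itself differed between cGAMP and PBS in 82 genes, which shared all 8 libraries with both comparisons. It was higher after cGAMP in 25 genes and lower in 57 (0.242% and 0.552% of genes). Of these 82 genes, 37 were higher in implanted ECs after PBS and not called after cGAMP. This test called 2 genes without replicate 2 of spontaneous cGAMP, 13 without replicate 1 of that group, and 10 and 9 without replicate 1 and 2 of spontaneous PBS. Without replicate 1 of implanted PBS 40 were called, and 127 without replicate 2 of implanted cGAMP. The calls of changes in the difference given below were therefore often lost when 1 library was left out. Of the genes named with such a change F830016B08Rik alone was still called without replicate 2 of spontaneous cGAMP. The sizes moved less in some genes. Without any 1 of the 4 cGAMP libraries the change was -4.39 to -4.71 in Cxcl9 and -2.38 to -2.48 in Gbp5. In Ubd it ran from -2.84 to -4.33.

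The genes that stood highest in implanted over spontaneous ECs after cGAMP included members of the Ms4a and Ifi200 families, a lipase and a colony-stimulating factor. Ms4a6d (chr19:11586604-11604849, - strand), a membrane protein of the MS4A family, was at 41.1 and 45.3 CPM in the spontaneous libraries and at 241 and 442 CPM in the implanted ones, a log2 difference of 2.89 ± 0.29 (adjusted p = 0.000642). Its relative Ms4a4c was at 7.22 and 3.59 against 44.0 and 32.0 CPM (2.65 ± 0.38). The Ifi200 family member Ifi209 was at 7.04 and 3.94 against 43.6 and 39.3 CPM (2.75 ± 0.36). In all 3 genes, chosen for a large difference without overlap of libraries, the lower implanted library was several times above the higher spontaneous one. Ms4a6d was also higher in implanted ECs after PBS (2.29 ± 0.29), whereas Ms4a4c and Ifi209 were below 1 CPM in all 4 PBS libraries. Fam46a, a poly(A) polymerase, was at 9.71 and 6.33 against 45.2 and 56.6 CPM (2.54 ± 0.31) and did not differ past the threshold after PBS (-0.05 ± 0.31). Csf3, the growth factor of granulocytes, was at 7.75 and 3.02 against 27.9 and 28.3 CPM (2.29 ± 0.34), and Lipg, endothelial lipase, at 7.72 and 5.09 against 39.0 and 30.5 CPM (2.28 ± 0.31). All 6 genes kept their calls without any 1 of the 4 cGAMP libraries, whereas Ms4a4c, Ifi209 and Lipg lost them after thinning to 1000 UMIs (adjusted p = 0.204, 0.0502 and 0.0659). Tnfrsf9, a TNF receptor family member of activated cells, was at 7.17 and 2.13 against 28.3 and 30.8 CPM (2.59 ± 0.61) and lost its call without that library (adjusted p = 0.0568), without replicate 2 of that group (0.0574) and without replicate 2 of spontaneous cGAMP (0.174).

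**Figure D1:**
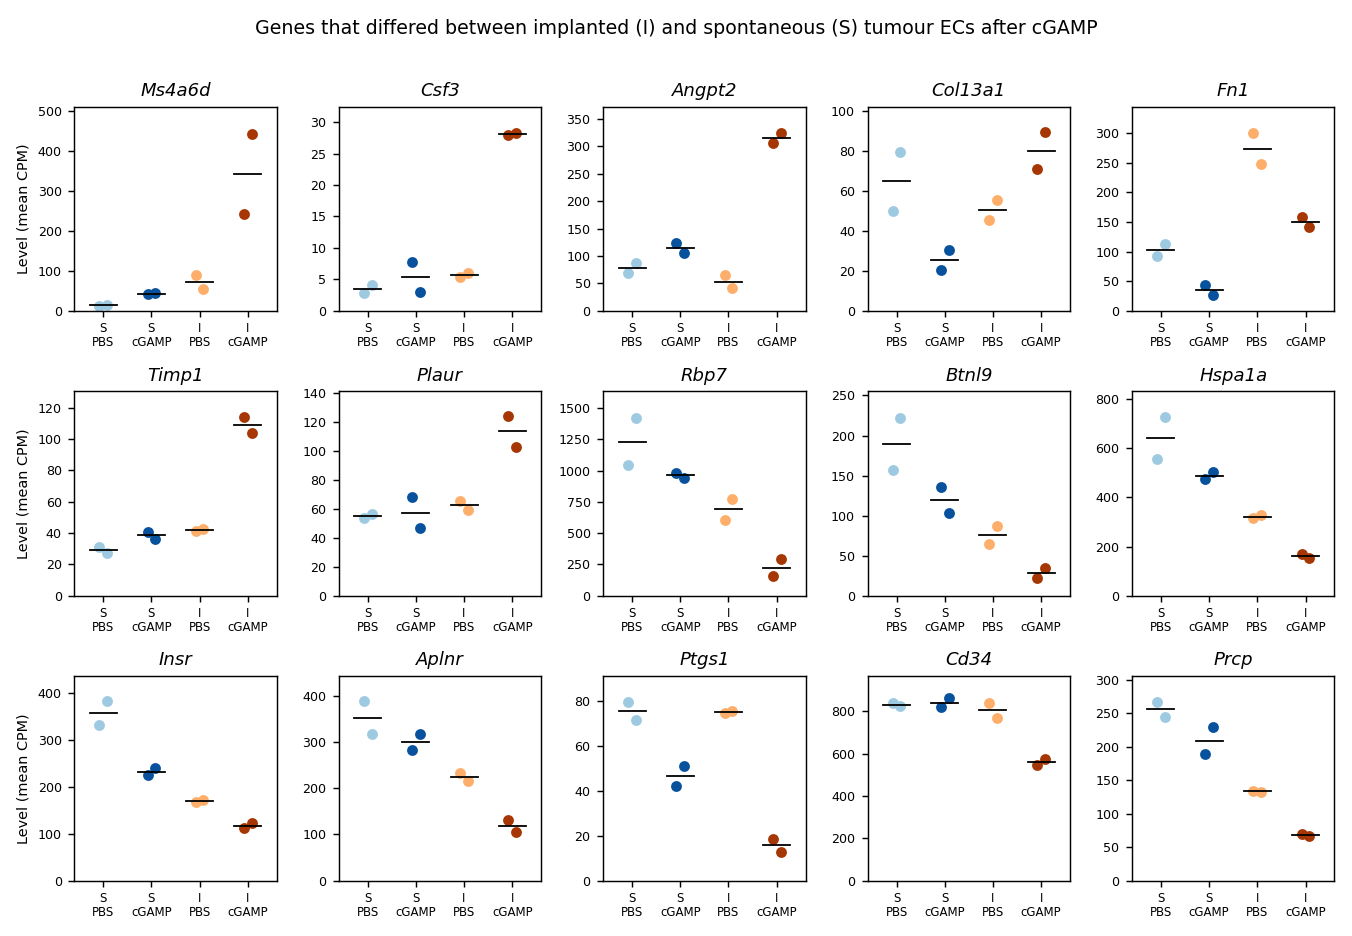
Level of the leading genes in ECs of each library, with the mean CPM on a linear axis of each gene's own range, 1 point per library and a line at the mean of the 2 libraries of each of the 4 groups. Ms4a6d reached 241 and 442 CPM in the implanted cGAMP libraries against 41.1 and 45.3 CPM in the spontaneous ones, and Rbp7 158 and 290 against 983 and 940 CPM.

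The genes that stood lowest in implanted ECs included a long non-coding RNA, a basement membrane gene and a lysosomal enzyme. The antisense RNA Gm12002 (chr11:12314514-12351028, + strand) was at 42.5 and 50.8 CPM in the spontaneous and 6.68 and 7.08 CPM in the implanted cGAMP libraries (-2.59 ± 0.19, adjusted p = 0.000323). Hmcn1, which encodes the basement membrane protein hemicentin, was at 23.7 and 26.4 against 5.35 and 8.61 CPM (-1.74 ± 0.18), and Tril, a toll-like receptor interactor, at 36.8 and 48.5 against 12.1 and 13.3 CPM (-1.66 ± 0.14). Prcp, a lysosomal carboxypeptidase that cleaves angiotensin and prekallikrein, was at 189 and 229 against 69.4 and 66.9 CPM (-1.59 ± 0.10, adjusted p = 0.00018). The rule that chose these genes required that no implanted library reached the level of a spontaneous one. All 4 were also lower in implanted ECs after PBS, by -1.57 ± 0.19, -1.03 ± 0.18, -0.64 ± 0.14 and -0.93 ± 0.10 in this order, and the cGAMP calls were kept in each of the 21 alternative settings. The acute phase genes Saa1 and Saa2, which are near-identical copies and may exchange reads, were lower by -2.46 ± 0.64 and -2.52 ± 0.56. Saa1 was at 142 and 73.4 against 43.3 and 6.98 CPM and lost its call without either spontaneous cGAMP library (adjusted p = 0.184 and 0.103 without replicate 1 and 2) and without replicate 2 of implanted cGAMP (0.0711). Saa2 lost it without replicate 1 or 2 of spontaneous cGAMP (0.113 and 0.0891).

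Among the gene lists with at least 10 tested members, the largest shares called in 1 direction were those of ER stress genes, of which 13 of 22 were higher, and of markers of capillary ECs that handle lipid, of which 9 of 18 were lower. The lists of interferon response, antigen presentation and chemokine genes held calls in the higher direction alone, whereas extracellular matrix genes were split, with 10 higher and 8 lower of 32. None of 13 mitochondrially encoded and none of 32 genes of dividing cells was called after cGAMP (limma), where 2 and 2 had an unadjusted p under 0.05, while 3 genes of dividing cells were higher after PBS. These shares stand beside 4.96% and 7.6% of all genes. The 8 interferon genes that the study named, which had been chosen on these libraries and are no independent evidence, held 1 higher call after cGAMP and 6 after PBS.

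**Figure D2:**
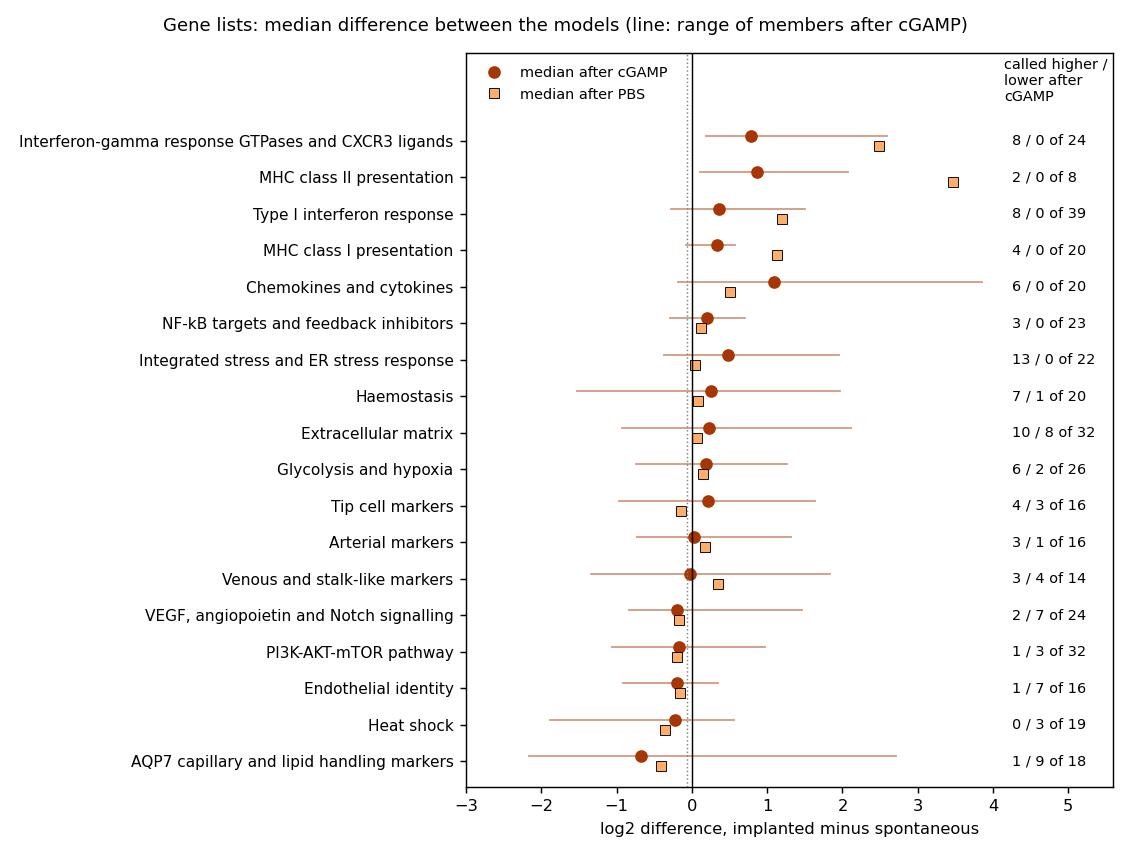
Median log2 difference between implanted and spontaneous tumour ECs for each gene list, after cGAMP (circles, with a line over the range of the members) and after PBS (squares), with the median of all genes as a dotted line and the number of members called higher and lower after cGAMP at the right. The interferon and antigen presentation lists had larger medians after PBS than after cGAMP, and the ER stress list stood at 0.47 after cGAMP and 0.03 after PBS.

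On the log2 scale, interferon response and antigen presentation genes differed more between the models after PBS than after cGAMP. A log2 difference is relative to the level. The spontaneous PBS libraries held the lowest summed CPM in each of the 4 lists given here, and differences in CPM were not compared. Type I interferon response genes were higher in implanted ECs for 34 of 39 after PBS (median 1.19) and for 8 of 39 after cGAMP (median 0.36), with none lower in either. The genes of the interferon-gamma response, GTPases and ligands of the receptor CXCR3, were higher for 22 of 24 after PBS (median 2.48) and 8 of 24 after cGAMP (median 0.79). The counts for MHC class I presentation were 18 and 4 of 20 (medians 1.13 and 0.34) and those for MHC class II presentation 7 and 2 of 8 (medians 3.47 and 0.86). The model difference was smaller after cGAMP than after PBS, past the threshold, for 10, 13, 8 and 5 genes of these lists, and larger for 1, Ctss. Without replicate 1 of implanted cGAMP 6, 3, 1 and 1 genes of the 4 lists were higher after cGAMP. Without replicate 1 of spontaneous cGAMP the counts were 3, 0, 0 and 1, and without replicate 2 of that group 2, 1, 0 and 0.

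Several of these genes carry the interferon-stimulated response element core, GAAANNGAAA on either strand, in the 250 bases before their start site. In RefSeq (GRCm38.p6) 2.98% of 32851 such windows held it, against 12 of 35 windows of 30 matched type I interferon response genes (34.3%) and 11 of 20 windows of 17 matched interferon-gamma response genes (55%). For MHC class I presentation it was 3 of 19 windows (15.8%) and for class II 1 of 9 (11.1%). The counts for genes called higher after cGAMP were 3 of 9, 4 of 9, 0 of 5 and 1 of 1 windows. They follow the order of the lists above. Windows of 1 gene overlap, and matches in Isg15 overlap each other. A match is a description of the letters and not a binding site. The stretches of 5 genes of these lists are shown, 5′ to 3′ on the strand of the gene and ending at the base before the start site, because their levels are described next. Capitals mark the element, which reads TTTCNNTTTC where it lies on the opposite strand.
Isg15 (chr4:156200819-156200918, - strand): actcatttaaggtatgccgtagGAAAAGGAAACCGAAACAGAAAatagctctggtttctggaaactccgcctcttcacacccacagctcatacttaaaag
Rsad2 (chr12:26456453-26456582, - strand): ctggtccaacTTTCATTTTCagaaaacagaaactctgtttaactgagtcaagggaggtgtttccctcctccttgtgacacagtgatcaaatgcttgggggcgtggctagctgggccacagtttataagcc
Gbp5 (chr3:142496764-142496933, + strand): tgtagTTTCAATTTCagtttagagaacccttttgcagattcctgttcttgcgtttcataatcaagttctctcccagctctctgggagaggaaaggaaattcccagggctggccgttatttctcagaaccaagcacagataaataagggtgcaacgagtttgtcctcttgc
Tgtp2 (chr11:49064213-49064312, - strand): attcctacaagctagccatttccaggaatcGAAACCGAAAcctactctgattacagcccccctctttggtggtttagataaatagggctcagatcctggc
B2m (chr2:122147537-122147686, + strand): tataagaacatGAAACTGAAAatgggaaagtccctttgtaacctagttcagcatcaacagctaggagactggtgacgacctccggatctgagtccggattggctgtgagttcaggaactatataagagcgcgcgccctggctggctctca

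Among the type I interferon response genes, the antiviral GTPase Mx1 was at 29.3 and 34.8 CPM in the spontaneous and 81.4 and 104 CPM in the implanted cGAMP libraries (1.496 ± 0.20, adjusted p = 0.00242). Phf11b, an interferon-induced PHD finger gene, was at 101 and 107 against 214 and 256 CPM (1.16 ± 0.17). Mx1 and Phf11b kept their calls without any 1 of the cGAMP libraries. After thinning to 1000 UMIs Phf11b was called and Mx1 was not (limma, adjusted p = 0.0364 and 0.168). The ubiquitin-like modifier Isg15, whose 3 overlapping elements are shown above, was at 63.0 and 79.4 CPM in the spontaneous and 300 and 189 CPM in the implanted PBS libraries (1.74 ± 0.18, adjusted p = 0.000401). After cGAMP it stood at 1375 and 1470 against 2053 and 2260 CPM (0.60 ± 0.18, adjusted p = 0.0554). The groups did not overlap in either comparison, but only the one after PBS passed the threshold, and the change in the difference did not (-1.14 ± 0.25, adjusted p = 0.0858). Rsad2, the antiviral enzyme viperin, was at 489 and 509 against 854 and 844 CPM after cGAMP (0.76 ± 0.22, adjusted p = 0.0466), and it lost its call without any 1 of the 4 cGAMP libraries (adjusted p 0.0912 to 0.182). Ifitm3, a restriction factor of viral entry, was at 7702 and 7194 against 8187 and 8835 CPM after cGAMP (0.19 ± 0.09, adjusted p = 0.169) and at 1802 and 1808 against 3647 and 3103 CPM after PBS (0.90 ± 0.09). Its change in the difference was -0.71 ± 0.12 (adjusted p = 0.0349). It was called neither without replicate 1 of implanted cGAMP (0.0561) nor without replicate 1 or 2 of spontaneous cGAMP (0.119 and 0.145). Of the nucleic acid sensors, Zbp1 was at 227 and 248 against 340 and 359 CPM after cGAMP (0.56 ± 0.23, adjusted p = 0.145) and at 5.14 and 6.15 against 91.1 and 47.1 CPM after PBS (3.33 ± 0.23). Ifi204, a member of the Ifi200 family of DNA sensors, was higher by 0.81 ± 0.13 after cGAMP and by 0.81 ± 0.13 after PBS.

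In implanted ECs after PBS, replicate 1 stood above replicate 2 in each of the interferon-gamma response genes named here. The chemokine Cxcl9 was at 30.7 and 17.0 CPM in the spontaneous and 1774 and 823 CPM in the implanted PBS libraries, and at 1627 and 1435 against 2967 and 3694 CPM after cGAMP. Both implanted libraries lay above both spontaneous ones after either injection, and replicate 1 of implanted PBS also lay above both spontaneous cGAMP libraries. The difference after cGAMP was 1.12 ± 0.32 (adjusted p = 0.0486), a call lost without any 1 of the 4 cGAMP libraries (0.0696 to 0.235). The guanylate-binding protein Gbp5 was at 11.1 and 11.8 against 177 and 84.4 CPM after PBS (3.31 ± 0.25) and at 172 and 161 against 317 and 295 CPM after cGAMP (0.88 ± 0.25, adjusted p = 0.0475). Its change in the difference was -2.43 ± 0.36 (adjusted p = 0.0203). The GTPase Tgtp2, a near-identical copy of Tgtp1 whose reads may be exchanged with it, was at 1.72 and 1.93 against 25.9 and 17.3 CPM after PBS and at 38.5 and 42.7 against 67.8 and 70.0 CPM after cGAMP (0.75 ± 0.18). The cGAMP calls of Gbp5 and Tgtp2 were lost without any 1 of the 4 cGAMP libraries, with adjusted p up to 0.221 and 0.134. The ubiquitin-like protein Ubd, which tags proteins for the proteasome, was at 32.5 and 55.7 against 440 and 156 CPM after cGAMP (2.59 ± 0.45, adjusted p = 0.00652) and at 6.99 and 4.44 against 649 and 349 CPM after PBS (6.18 ± 0.45). It lost its cGAMP call without replicate 1 of spontaneous cGAMP (0.0549). Irf8, a transcription factor of the interferon response, was at 82.9 and 66.4 against 153 and 174 CPM after cGAMP (1.12 ± 0.26), and its difference after PBS did not pass the threshold (0.71 ± 0.26, adjusted p = 0.129). Irf8 lost its call without replicate 1 or 2 of spontaneous cGAMP (0.0591 and 0.16) and without replicate 2 of implanted cGAMP (0.0594). Cd274, the checkpoint ligand PD-L1, was at 67.2 and 69.5 against 133 and 136 CPM after cGAMP (0.97 ± 0.28, adjusted p = 0.0462), a call lost without any 1 of the cGAMP libraries (0.0999 to 0.187).

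**Figure D3:**
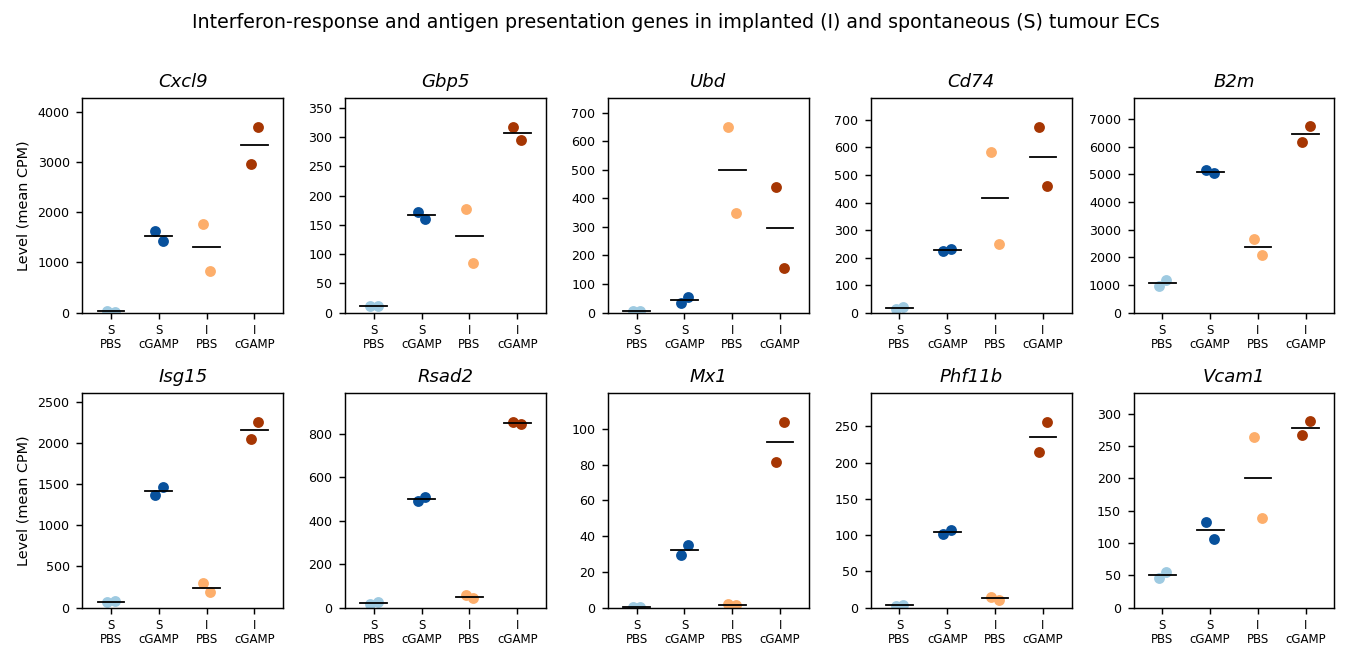
Level of interferon response and antigen presentation genes in ECs of each library, with the mean CPM on a linear axis of each gene's own range, 1 point per library and a line at the mean of the 2 libraries of each of the 4 groups. Spontaneous PBS libraries lie near the base of the panels, with Cxcl9 at 30.7 and 17.0 CPM, and the implanted PBS libraries above them, with Cxcl9 at 1774 and 823 CPM.

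Of the antigen presentation genes, the MHC class I light chain B2m was at 5149 and 5039 CPM in the spontaneous and 6187 and 6761 CPM in the implanted cGAMP libraries (0.34 ± 0.12, adjusted p = 0.0874). After PBS it was at 977 and 1192 against 2648 and 2090 CPM (1.12 ± 0.12, adjusted p = 0.000452). The heavy chain H2-Q7, whose reads may be shared with other H2-Q genes, was at 402 and 397 against 557 and 590 CPM after cGAMP (0.52 ± 0.15, adjusted p = 0.0467), and Psmb10, a subunit of the immunoproteasome, at 332 and 330 against 423 and 413 CPM (0.34 ± 0.09, adjusted p = 0.0413). The model difference fell by 1.51 ± 0.21 in H2-Q7 and by 0.84 ± 0.13 in Psmb10 from PBS to cGAMP. H2-Q7 and Psmb10 lost their cGAMP calls without any 1 of the 4 cGAMP libraries (adjusted p up to 0.203 and 0.184). The class II invariant chain Cd74 was at 226 and 231 against 675 and 459 CPM after cGAMP (1.28 ± 0.34, adjusted p = 0.0374) and at 12.01 and 20.5 against 584 and 251 CPM after PBS (4.52 ± 0.34). Without replicate 1 of implanted cGAMP its adjusted p was 0.14, and it was 0.147 and 0.172 without replicate 1 and 2 of spontaneous cGAMP. Ctss, the lysosomal protease that trims the invariant chain, went the other way, with 12.2 and 9.51 against 50.1 and 46.9 CPM after cGAMP (2.07 ± 0.37) and 2.33 and 6.94 against 2.77 and 1.44 CPM after PBS (-0.76 ± 0.37, adjusted p = 0.253). Ctss lost its cGAMP call without replicate 2 of spontaneous cGAMP and after thinning to 1000 UMIs (limma, adjusted p = 0.197 after thinning). Ctss is also expressed by myeloid cells, which the CD45- gate would remove. Their markers were nevertheless found at higher sums in the implanted cGAMP libraries, as given below, and their part in Ctss was not tested.

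Chemokines and cytokines were higher in implanted ECs after cGAMP for 6 of 20 and lower for none (median 1.09), against 3 higher after PBS (median 0.50). The granulocyte factor Csf3 is given above. Il6, the acute phase cytokine, was at 34.9 and 24.4 against 79.1 and 52.7 CPM (1.12 ± 0.22), beside a difference of 1.13 ± 0.22 after PBS. The cGAMP call of Il6 was lost after thinning to 1000 UMIs (limma, adjusted p = 0.217). Il15, a growth factor of natural killer and T cells, was at 34.8 and 27.4 against 61.2 and 65.0 CPM (1.01 ± 0.24), beside 1.02 ± 0.24 after PBS. Ccl2, which attracts monocytes, was at 175 and 62.6 against 380 and 201 CPM after cGAMP (1.39 ± 0.40, adjusted p = 0.0476), so that its lower implanted library lay close to its higher spontaneous one. Ccl5, which attracts T cells, was at 1861 and 1232 against 2403 and 2201 CPM and was not called (0.60 ± 0.39, adjusted p = 0.34). The count was 4 without replicate 1 of implanted cGAMP, 4 without replicate 1 of spontaneous cGAMP and 1 when its replicate 2 was left out, where Il6 (0.113), Il15 (0.175) and Ccl2 (0.284) lost their calls. Il15 and Ccl2 lost them also without replicate 1 of implanted cGAMP (0.0549 and 0.196), and Il15 without replicate 1 of spontaneous cGAMP (0.0581) or replicate 2 of implanted cGAMP (0.0625).

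Receptors of these signals moved both ways, with 6 of 23 higher and 4 lower. The scavenging chemokine receptor Ackr2 was at 7.37 and 7.33 against 16.9 and 20.9 CPM (1.25 ± 0.21), whereas after PBS it was at 10.8 and 9.76 against 6.95 and 9.66 CPM (-0.29 ± 0.21, adjusted p = 0.444). The change in the difference was 1.54 ± 0.29 (adjusted p = 0.0477). Ccrl2, which presents the attractant chemerin, was at 33.2 and 24.1 against 70.4 and 73.8 CPM (1.32 ± 0.24). Chains of the interferon receptors were lower. The type I interferon receptor chain Ifnar1 was at 44.2 and 55.7 against 32.6 and 35.2 CPM (-0.54 ± 0.13) and the interferon-gamma receptor chain Ifngr1 at 183 and 189 against 122 and 129 CPM (-0.56 ± 0.08). Tnfrsf1a, the receptor TNFR1 that transmits TNF signals to caspases and NF-kB, was at 257 and 248 against 192 and 218 CPM (-0.30 ± 0.08, adjusted p = 0.0372). Ifnar1 and Tnfrsf1a lost their calls under median-of-ratios scaling (0.0519 and 0.0933). They also lost them without replicate 1 of implanted cGAMP (0.0883 and 0.159) and replicate 2 of spontaneous cGAMP (0.191 and 0.135), and Tnfrsf1a without replicate 1 of spontaneous cGAMP (0.155). Ifngr1 kept its call in these settings. After thinning to 1000 UMIs Ifngr1, Ackr2 and Ccrl2 were not called (limma, adjusted p = 0.163, 0.129 and 0.163). Ackr2 (0.0541) and Ccrl2 (0.0887) were not called without replicate 2 of spontaneous cGAMP. The list held 3 higher and 1 lower call without replicate 1 of implanted cGAMP, 3 and 2 without replicate 1 of spontaneous cGAMP, and 0 and 1 without replicate 2.

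Of the NF-kB targets and feedback inhibitors 3 of 23 were higher and none lower after cGAMP, with none called after PBS. Tnfaip2, a TNF-induced gene of ECs, was at 83.9 and 80.1 against 123 and 127 CPM (0.61 ± 0.09, adjusted p = 0.00276), and after PBS at 87.8 and 86.8 against 80.7 and 86.8 CPM. The change in the difference was 0.67 ± 0.12 (adjusted p = 0.0389). The cGAMP call of Tnfaip2 was lost after thinning to 1000 UMIs (limma, adjusted p = 0.31). Tnfaip3, the feedback inhibitor A20, was at 24.5 and 23.7 against 40.6 and 38.8 CPM (0.70 ± 0.14). Nfkbia, the inhibitor IκBα, was at 694 and 649 against 727 and 791 CPM and was not called (0.18 ± 0.08, adjusted p = 0.164). Tnfaip3 lost its call without replicate 1 or 2 of spontaneous cGAMP (0.0544 and 0.096), and 1 gene of the list was called in each of these settings. Of the leukocyte adhesion molecules 2 of 15 were higher and 2 lower. Vcam1, which binds integrins of leukocytes, was at 133 and 106 against 267 and 290 CPM (1.22 ± 0.24), and Icam1 at 138 and 127 against 202 and 165 CPM (0.46 ± 0.10). Both were also higher after PBS (1.91 ± 0.24 and 0.45 ± 0.10). The sialomucin Cd34 was at 818 and 861 against 545 and 575 CPM (-0.58 ± 0.07, adjusted p = 0.0015) and did not differ past the threshold after PBS (-0.05 ± 0.07), with a change in the difference of -0.54 ± 0.10 (adjusted p = 0.0452). Vcam1 lost its call without replicate 2 of spontaneous cGAMP (0.114), and Icam1 without that library (0.148), without replicate 1 of that group (0.0555) and without replicate 1 of implanted cGAMP (0.0865). Cd34 kept its call in all 21 settings.

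The ER stress and integrated stress response was the list with the most calls in 1 direction. Genes of this response encode chaperones that fold secreted proteins and factors that follow phosphorylation of eIF2α. In implanted ECs 13 of 22 were higher after cGAMP and none lower (median 0.47), whereas none of 22 was called in either direction after PBS (median 0.03, limma), where 6 had an unadjusted p under 0.05. For single genes the change from PBS to cGAMP in the model difference passed the threshold in 1 of 22, Phgdh. The count after cGAMP was 14 with median-of-ratios scaling, 9 without replicate 1 of implanted cGAMP, 10 without replicate 1 of spontaneous cGAMP and 2 when replicate 2 of that group was left out.

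A set of chaperone genes carries the ER stress element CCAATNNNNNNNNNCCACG, searched on both strands, in the 250 bases before their start site. It was found in 37 of 32851 RefSeq windows (0.113%) and in 5 of 23 windows of the 21 matched genes of the list (21.7%), namely those of Hspa5, Hsp90b1, Calr, Pdia6 and Creld2. All 5 were among the 12 matched genes called higher after cGAMP. The stretches are shown as in the previous listing, with the element in capitals and read as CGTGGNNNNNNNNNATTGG where it lies on the opposite strand. Hsp90b1 held 2 elements and the other genes 1 each.
Hspa5 (chr2:34771970-34772089, + strand): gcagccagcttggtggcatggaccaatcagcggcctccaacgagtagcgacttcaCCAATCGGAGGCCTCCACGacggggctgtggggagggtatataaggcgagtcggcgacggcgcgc
Hsp90b1 (chr10:86705445-86705664, - strand): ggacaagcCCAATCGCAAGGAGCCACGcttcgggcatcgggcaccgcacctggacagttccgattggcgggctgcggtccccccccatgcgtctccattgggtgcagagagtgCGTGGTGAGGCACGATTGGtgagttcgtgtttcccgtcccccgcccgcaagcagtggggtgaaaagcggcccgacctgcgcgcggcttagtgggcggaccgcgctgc
Calr (chr8:84846932-84847101, - strand): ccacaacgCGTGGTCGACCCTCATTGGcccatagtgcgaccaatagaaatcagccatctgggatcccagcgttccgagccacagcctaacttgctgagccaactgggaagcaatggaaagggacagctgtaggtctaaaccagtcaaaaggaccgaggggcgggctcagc
Pdia6 (chr12:17266469-17266588, + strand): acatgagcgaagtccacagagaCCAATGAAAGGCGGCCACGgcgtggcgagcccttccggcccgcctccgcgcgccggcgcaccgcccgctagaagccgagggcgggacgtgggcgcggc
Creld2 (chr15:88819516-88819645, + strand): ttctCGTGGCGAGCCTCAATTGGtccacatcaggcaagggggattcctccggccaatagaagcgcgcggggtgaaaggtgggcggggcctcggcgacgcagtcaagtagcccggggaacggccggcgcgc

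Hspa5, the chaperone BiP, was at 745 and 576 CPM in the spontaneous and 969.5 and 1010 CPM in the implanted cGAMP libraries (0.59 ± 0.11, adjusted p = 0.00926), against 557 and 587, and 566 and 636 CPM after PBS. Hsp90b1, the chaperone GRP94, was at 826 and 632 against 1171 and 1123 CPM (0.67 ± 0.11, adjusted p = 0.00518), and the calcium-binding chaperone Calr at 856 and 721 against 1104 and 1079 CPM (0.47 ± 0.09). In these 3 genes the spontaneous libraries differed more from each other than the implanted ones did, and replicate 1 was the nearer to the implanted level. The disulfide isomerase Pdia6 was at 327 and 273 against 439 and 451 CPM (0.57 ± 0.10) and the ER stress protein Creld2 at 38.4 and 28.9 against 70.8 and 69.8 CPM (1.05 ± 0.16). Hsp90b1 and Creld2 kept their calls in all 21 settings, while Hspa5, Calr and Pdia6 lost theirs without replicate 2 of spontaneous cGAMP (adjusted p = 0.0749, 0.0957 and 0.0627). Atf5, a transcription factor of the integrated stress response, was at 36.3 and 25.0 against 47.3 and 51.7 CPM (0.70 ± 0.17), a call lost when replicate 2 of either cGAMP group was left out (0.165 for spontaneous and 0.0776 for implanted), and just missed without replicate 1 of implanted cGAMP (0.0501). Phgdh, the first enzyme of serine synthesis, was low, at 0.813 and 1.33 against 8.97 and 5.35 CPM (1.95 ± 0.37), with a change in the difference of 2.86 ± 0.53 (adjusted p = 0.0417). Both calls of Phgdh were lost without replicate 1 (0.0523 after cGAMP and 0.111 for the difference) or 2 (0.0533 and 0.145) of spontaneous cGAMP. The gene fell under the filter on low values without replicate 1 or 2 of implanted cGAMP and in ECs with at least 2000 UMIs, so that neither call held when any 1 of the 4 cGAMP libraries was left out.

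Cytosolic heat shock genes went the opposite way, with 3 of 19 lower after cGAMP and 5 after PBS, and none higher. Hspa1a (chr17:34969190-34972156, - strand) was at 474 and 502 CPM in the spontaneous and 168 and 153 CPM in the implanted cGAMP libraries (-1.60 ± 0.11, adjusted p = 0.000281). Its near-identical copy Hspa1b, with which it may exchange reads, was at 295 and 294 against 94.1 and 66.6 CPM (-1.88 ± 0.20). Both encode inducible HSP70, both were lower after PBS too (-0.98 ± 0.11 and -1.22 ± 0.20), and both kept their calls in all 21 settings. The small heat shock protein Hspb1 was at 816 and 771 against 525 and 552 CPM (-0.56 ± 0.14, adjusted p = 0.0313). Hspb1 lost this call under median-of-ratios scaling (0.0539) and without any 1 of the 4 cGAMP libraries (0.0522 to 0.147). The constitutive Hspa8 was at 2533 and 2721 against 2136 and 2372 CPM and was not called (-0.22 ± 0.09, adjusted p = 0.133).

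**Figure D4:**
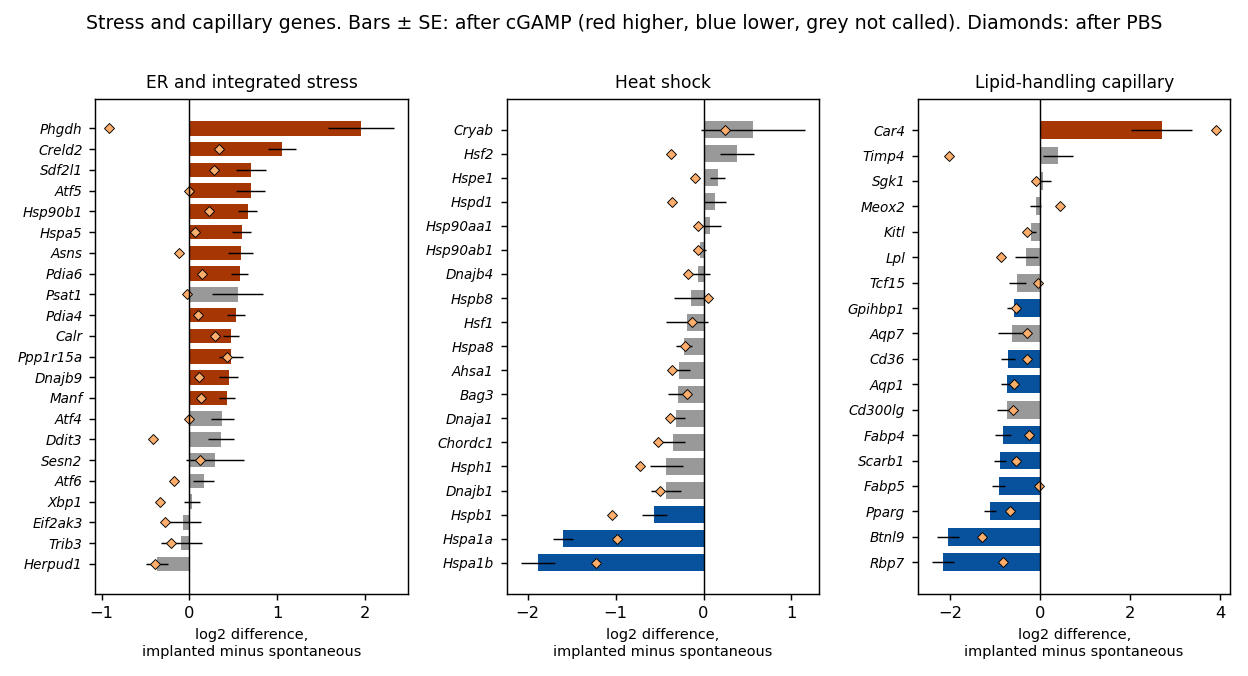
Log2 difference between implanted and spontaneous tumour ECs for ER stress, heat shock and capillary or lipid handling genes, with bars ± SE after cGAMP (2 libraries per group, red for called higher, blue for called lower, grey for not called) and diamonds after PBS. ER chaperones such as Hspa5 and Hsp90b1 lie further to the right after cGAMP than after PBS, whereas HSP70 and most capillary genes lie to the left after both injections.

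Capillary markers and genes of lipid handling were lower in implanted ECs after cGAMP for 9 of 18 and higher for 1 (median -0.67), against 5 lower and 1 higher after PBS (median -0.41). They mark a capillary EC type with the glycerol channel Aqp7. A mean over ECs cannot tell fewer ECs of such a type from less RNA per cell. Rbp7, a retinol-binding protein, was at 983 and 940 CPM in the spontaneous and 158 and 290 CPM in the implanted cGAMP libraries (-2.16 ± 0.24, adjusted p = 0.00101), against 1042 and 1422, and 608 and 776 CPM after PBS. Btnl9, a butyrophilin-like membrane protein of capillaries, was at 135 and 103 against 21.9 and 34.9 CPM (-2.05 ± 0.24). Pparg, the nuclear receptor that drives lipid uptake genes, was at 60.8 and 56.0 against 24.8 and 28.2 CPM (-1.11 ± 0.14). These 3 genes kept their calls in all 21 settings. The fatty acid binding proteins Fabp4 and Fabp5 were at 5834 and 5320 against 2524 and 3893 CPM (-0.83 ± 0.17) and at 607 and 588 against 261 and 382 CPM (-0.92 ± 0.14). The lipoprotein receptor Scarb1 was lower by -0.89 ± 0.14 and Gpihbp1, which holds lipoprotein lipase on capillaries, by -0.59 ± 0.15. The exception was Car4, a carbonic anhydrase of capillary surfaces, at 21.5 and 4.94 against 81.4 and 68.1 CPM (2.71 ± 0.68) and higher after PBS as well (3.92 ± 0.68). Without replicate 1 of implanted cGAMP 7 genes were lower and none higher, and without replicate 1 and 2 of spontaneous cGAMP 6 and 3 were lower. Gpihbp1 and Car4 lost their calls without replicate 1 of implanted cGAMP (0.118 and 0.0819), Fabp4 and Gpihbp1 without replicate 1 of spontaneous cGAMP (0.0886 and 0.102), and Fabp4, Fabp5, Scarb1, Gpihbp1 and Car4 without replicate 2 (0.0883, 0.051, 0.0572, 0.164 and 0.22). Gpihbp1 was also not called under median-of-ratios scaling (0.0524), nor Car4 without replicate 2 of implanted cGAMP (0.052).

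The share of ECs with a transcript showed the same order after every EC had been thinned to 1000 UMIs. Rbp7 was found in 36.3% (Wilson 95% interval 32.2% to 40.6%) and 35.5% (31.7% to 39.6%) of thinned spontaneous ECs and in 11.4% (9.69% to 13.4%) and 12.6% (10.1% to 15.7%) of thinned implanted ECs. Without thinning the shares were 66.9% and 64.1% against 21.8% and 37.3%. For Btnl9 the thinned shares were 11.1% and 9.69% against 2.11% and 2.64%, and the unthinned ones 40.7% and 36.1% against 8.74% and 16.9%. Ms4a6d was found in 3.75% and 4.13% of thinned spontaneous and 16.8% and 23.8% of thinned implanted ECs, and in 13.5% and 14.4% against 31.1% and 52.7% before thinning. The interval of each implanted library lay outside those of both spontaneous libraries for the thinned shares of these 3 genes. ECs under 1000 UMIs were left out, 164 and 9 in the implanted and 4 and 14 in the spontaneous libraries, and the intervals cover counting error only. As a background, cells with Epcam and Krt8 but no Pecam1 were taken from replicate 1 of implanted cGAMP, with a median of 1950 UMIs against 2776 in its ECs. They were not free of endothelial transcripts. After thinning 10 of 26 held Cdh5 (38.5%) and 6 held Tie1, whereas 1 held Kdr and 0 held Tek. Whether some were ECs or mixed cells was not tested. Of 26 such cells after thinning 1 held Ms4a6d (3.85%, 0.682% to 18.9%), 1 held Rbp7 and 0 held Btnl9 (0% to 12.9%). With so few cells these intervals are wide. They held the thinned shares of Btnl9 in all 4 cGAMP libraries, of Rbp7 in both implanted libraries, and of Ms4a6d in both spontaneous libraries and in replicate 1 of implanted cGAMP, so these shares were not told apart from the background. Rbp7 in both spontaneous libraries and Ms4a6d in replicate 2 of implanted cGAMP lay above these intervals. The 26 cells came from replicate 1 of implanted cGAMP alone, so they cannot show whether a share in another library lay above that library's own background. The spontaneous cGAMP libraries held 0 and 4 such cells before thinning.

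VEGF, angiopoietin and Notch signalling genes were lower in implanted ECs after cGAMP for 7 of 24 and higher for 2. Both higher genes encode ligands. Without replicate 1 of implanted cGAMP the counts were 6 and 1, and without replicate 1 and 2 of spontaneous cGAMP 5 and 2, and 5 and 1. Angpt2, the angiopoietin that ECs release on activation and that loosens vessels, was at 123 and 106 CPM in the spontaneous and 306 and 324 CPM in the implanted cGAMP libraries (1.46 ± 0.18, adjusted p = 0.00143), a call kept in all 21 settings. The change in the difference of Angpt2 was 2.03, larger than its difference after cGAMP, so that its difference after PBS lay below 0. Vegfa was at 22.4 and 13.5 against 39.9 and 41.8 CPM (1.18 ± 0.33, adjusted p = 0.0429), a call lost without any 1 of the 4 cGAMP libraries (0.0559 to 0.279). Several receptors were lower, whereas the VEGF receptor Flt1 was not called. Tek, the angiopoietin receptor TIE2, was at 149 and 152 against 97.1 and 105 CPM (-0.57 ± 0.08) and its partner Tie1 at 213 and 249 against 126 and 142 CPM (-0.78 ± 0.11). The VEGF coreceptor Nrp1 was at 318 and 344 against 168 and 204 CPM (-0.83 ± 0.11), Nrp2 was lower by -0.59 ± 0.08, and the semaphorin receptor Plxnd1 by -0.57 ± 0.08. Tek, Nrp1, Nrp2 and Plxnd1 were lower after PBS too, by -0.39 ± 0.08, -0.61 ± 0.11, -0.71 ± 0.08 and -0.36 ± 0.08. Ptprb, the phosphatase that restrains TIE2, was at 751 and 767 against 555 and 546 CPM (-0.46 ± 0.09). Kdr, the main VEGF receptor, was at 653 and 632 against 430 and 531 CPM (-0.43 ± 0.12, adjusted p = 0.046), and its call was lost under median-of-ratios scaling (0.0913), without replicate 1 of implanted cGAMP (0.192) and without replicate 1 or 2 of spontaneous cGAMP (0.176 and 0.17). Flt1, the VEGF receptor 1, was at 974 and 940 against 881 and 1092 CPM, where the groups overlapped (0.04 ± 0.11, adjusted p = 0.871). Ptprb was not called without replicate 1 or 2 of spontaneous cGAMP (0.0544 and 0.0965).

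Tip cell markers were higher for 4 of 16 and lower for 3 after cGAMP, and lower for 2 after PBS. Tip cells lead new vessel sprouts. Apln, the ligand apelin, was at 75.4 and 52.2 against 118 and 136 CPM (1.004 ± 0.19), whereas its receptor Aplnr, listed among venous and stalk-like markers, was at 284 and 318 against 132 and 106 CPM (-1.34 ± 0.12, adjusted p = 0.000569). Col13a1, a transmembrane collagen, was at 20.4 and 30.3 against 70.7 and 89.5 CPM (1.64 ± 0.23), while after PBS its libraries overlapped (-0.32 ± 0.23, adjusted p = 0.447). Ramp3, a partner of the adrenomedullin receptor, was at 48.8 and 51.3 against 76.7 and 89.6 CPM (0.72 ± 0.11). The change in the difference was 1.96 ± 0.33 for Col13a1 (adjusted p = 0.0329) and 1.14 ± 0.16 for Ramp3 (adjusted p = 0.0182). In both genes the difference after PBS thus lay below 0. Lower were Rgcc, a cell cycle regulator, at 440 and 594 against 245 and 277 CPM (-0.97 ± 0.12), and the growth factor Ptn at 142 and 145 against 103 and 97.5 CPM (-0.51 ± 0.08), the latter also after PBS (-0.75 ± 0.08). Aplnr, Col13a1 and Rgcc kept their cGAMP calls in all 21 settings. Apln lost its call without replicate 2 of spontaneous cGAMP (0.0967), and Ramp3 among ECs with at least 2000 UMIs (0.0689). Without replicate 2 of spontaneous cGAMP the counts of tip cell markers were 2 higher and 2 lower.

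Extracellular matrix genes were higher for 10 of 32 and lower for 8 in implanted ECs after cGAMP, and higher for 6 and lower for 4 after PBS. The higher genes included fibronectin and a collagen crosslinker, and the lower ones type IV collagens and perlecan of the basement membrane. Fibronectin, Fn1, was at 43.3 and 26.5 CPM in the spontaneous and 159 and 141 CPM in the implanted cGAMP libraries (2.11 ± 0.20, adjusted p = 0.000569) and was higher after PBS too (1.39 ± 0.20). Tenascin C, Tnc, was at 13.7 and 6.24 against 37.2 and 43.1 CPM (1.99 ± 0.34), and Timp1, the inhibitor of metalloproteinases, at 40.8 and 36.4 against 114 and 104 CPM (1.48 ± 0.11, adjusted p = 0.000326). Timp1 differed less after PBS (0.50 ± 0.11), with a change in the difference of 0.97 ± 0.16 (adjusted p = 0.0314). The collagen crosslinker Lox, low at 2.62 and 3.33 against 9.07 and 7.53 CPM (1.23 ± 0.25), and Col8a1, at 33.0 and 30.9 against 73.5 and 77.6 CPM (1.22 ± 0.21), were also higher. The basement membrane collagens Col4a1 and Col4a2 were at 2897 and 2861 against 2052 and 2048 CPM (-0.49 ± 0.08) and at 1533 and 1493 against 1090 and 1111 CPM (-0.46 ± 0.08). The proteoglycan Hspg2, perlecan, was at 446 and 458 against 277 and 293 CPM (-0.67 ± 0.07), Sparc at 5360 and 5764 against 3576 and 3767 CPM (-0.60 ± 0.07) and its relative Sparcl1 at 1261 and 1531 against 712 and 749 CPM (-0.93 ± 0.09). No implanted library overlapped a spontaneous one in any of these 10 genes, which had all been called. In the list 15 of 32 genes lay above and 12 below without overlap, beside 21.7% and 33.7% of all genes tested. Fn1, Timp1, Sparc, Sparcl1 and Hspg2 kept their calls in all 21 settings. In the setting without replicate 2 of spontaneous cGAMP Tnc (0.0572), Lox (0.058), Col8a1 (0.0744), Col4a1 (0.0631) and Col4a2 (0.0657) lost theirs, as did Lox (0.0635) and Col4a2 (0.0533) without replicate 1, and the list held 2 higher and 3 lower calls, and 7 and 5, in these settings.

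**Figure D5:**
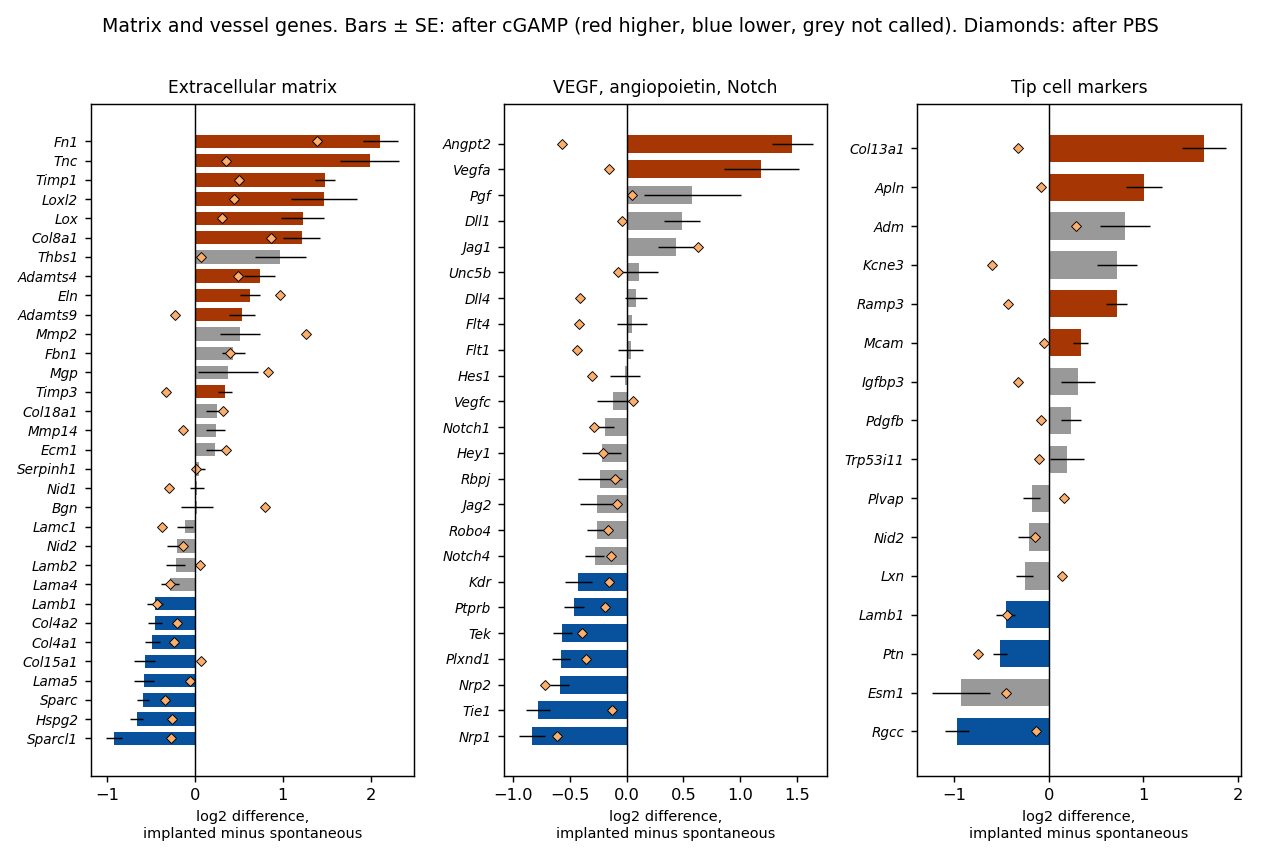
Log2 difference between implanted and spontaneous tumour ECs for genes of the extracellular matrix, of VEGF, angiopoietin and Notch signalling and of tip cells, with bars ± SE after cGAMP (2 libraries per group, red for called higher, blue for called lower, grey for not called) and diamonds after PBS. The bars after cGAMP of Angpt2, Fn1, Timp1 and Col13a1 lie to the right, and those of the receptors Tek, Tie1 and Nrp1 and the basement membrane genes to the left.

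Genes of haemostasis were higher for 7 of 20 and lower for 1 after cGAMP, and higher for 4 and lower for 2 after PBS. Plaur, the urokinase receptor, was at 68.2 and 46.6 against 125 and 103 CPM (0.99 ± 0.16), and Procr, the protein C receptor, at 141 and 141 against 210 and 240 CPM (0.67 ± 0.09). Nt5e, the enzyme CD73 that makes adenosine, was at 3.99 and 7.04 against 26.3 and 21.4 CPM (1.97 ± 0.31). The lower gene was Ptgs1, the cyclooxygenase COX-1 on the path to prostacyclin, at 42.3 and 51.1 against 18.7 and 12.8 CPM (-1.52 ± 0.16, adjusted p = 0.000876). After PBS Ptgs1 was at 79.6 and 71.5 against 74.9 and 75.8 CPM, where the groups overlapped, and the change in the difference was -1.52 ± 0.23 (adjusted p = 0.0206). These 4 genes kept their cGAMP calls without any 1 of the cGAMP libraries. The count of higher genes was 5 without replicate 1 of implanted cGAMP and 4 without replicate 2 of spontaneous cGAMP.

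Genes of cell death held calls in both directions, beside 4.96% and 7.6% of all genes called higher and lower after cGAMP. Of 29 death receptor, apoptosis and necroptosis genes 5 were higher and 2 lower after cGAMP, and 4 higher and 2 lower after PBS. Ripk3 and Mlkl, the kinase and the pore former of necroptosis, were at 40.4 and 38.6 against 75.9 and 58.8 CPM (0.74 ± 0.15) and at 57.2 and 53.9 against 75.7 and 83.4 CPM (0.51 ± 0.12). The inflammatory caspase Casp4 was at 93.3 and 86.5 against 130 and 155 CPM (0.66 ± 0.13). Casp8, the initiator caspase of death receptors, was at 142 and 144 against 182 and 174 CPM (0.31 ± 0.08, adjusted p = 0.0296). It was the 1 gene called among the 6 pro-apoptotic genes that the study had named from these samples, so it is no independent evidence. Lower were Bmf, a pro-apoptotic BH3-only protein, at 18.8 and 22.7 against 7.12 and 3.36 CPM (-1.86 ± 0.27), and the effector caspase Casp6 at 26.9 and 30.6 against 15.5 and 15.4 CPM (-0.85 ± 0.13). Of 10 survival genes Bcl2 was lower (31.5 and 27.9 against 20.9 and 17.6 CPM, -0.60 ± 0.15) and none higher, and Mcl1 was at 354 and 381 against 402 and 396 CPM (0.12 ± 0.08, adjusted p = 0.324). All 7 called genes named here lost their calls without replicate 2 of spontaneous cGAMP, at adjusted p of 0.0997 for Ripk3, 0.157 for Mlkl, 0.107 for Casp4, 0.131 for Casp8, 0.051 for Bmf, 0.051 for Casp6 and 0.103 for Bcl2. Ripk3, Mlkl, Casp8 and Bcl2 lost them without replicate 1 of that group (0.0541, 0.0808, 0.114 and 0.15), Ripk3 and Casp8 without replicate 1 of implanted cGAMP (0.0534 and 0.102), and Mlkl and Bcl2 without replicate 2 of it (0.0928 and 0.102). The death gene list held 3 higher calls without replicate 1 of implanted cGAMP, 2 without replicate 1 of spontaneous cGAMP and 1 when its replicate 2 was left out.

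In the PI3K-AKT-mTOR pathway 1 of 32 genes was higher and 3 were lower after cGAMP, and 4 were lower after PBS. The counts after cGAMP were near the shares of all genes, 4.96% higher and 7.6% lower, and do not set the pathway apart. After PBS 4.06% of all genes were lower. The insulin receptor Insr was at 225 and 241 CPM in the spontaneous and 112 and 123 CPM in the implanted cGAMP libraries (-0.98 ± 0.09, adjusted p = 0.000569), and at 333 and 383 against 167 and 173 CPM after PBS (-1.07 ± 0.09). The implanted libraries lay below the spontaneous ones after either injection, and the cGAMP call was kept in all 21 settings. The related receptor Igf1r was at 69.5 and 63.4 against 44.3 and 41.0 CPM (-0.63 ± 0.12), and lost its call without replicate 1 or 2 of spontaneous cGAMP (0.0621 and 0.0572). Of the glycolysis and hypoxia genes 6 of 26 were higher and 2 lower after cGAMP. The glucose transporter Slc2a1 was at 63.0 and 43.0 against 89.5 and 100 CPM (0.85 ± 0.18), the lactate exporter Slc16a3 at 25.0 and 19.9 against 49.7 and 60.2 CPM (1.26 ± 0.24) and Gapdh at 926 and 799 against 1088 and 1066 CPM (0.32 ± 0.08). After PBS Slc2a1 and Slc16a3 were not called (-0.13 ± 0.18 and 0.67 ± 0.24), whereas Gapdh was higher (0.40 ± 0.08). Without replicate 2 of spontaneous cGAMP Slc2a1 (0.114), Slc16a3 (0.0996) and Gapdh (0.195) were not called, and Gapdh was not called without replicate 1 of implanted cGAMP either (0.0787). The count of higher glycolysis and hypoxia genes was then 0 and 3. The pathway list held 0 higher and 3 lower calls without replicate 1 of implanted cGAMP, 0 and 2 without replicate 1 of spontaneous cGAMP, and 0 and 1 without replicate 2.

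Among arterial markers 3 of 16 were higher and 1 lower. The gap junction protein Gja5 was at 27.6 and 26.9 against 53.4 and 60.9 CPM (1.04 ± 0.12, adjusted p = 0.00137) and the secreted chaperone Clu at 247 and 206 against 433 and 738 CPM (1.32 ± 0.23). Edn1, the vasoconstrictor endothelin, was at 75.0 and 110 against 133 and 159 CPM (0.67 ± 0.17). The matrix protein Fbln2 was at 244 and 244 against 144 and 149 CPM (-0.73 ± 0.11), whereas after PBS its libraries overlapped (0.12 ± 0.11), and the change in the difference was -0.85 ± 0.15 (adjusted p = 0.0389). Of 22 immediate early genes 3 were higher and 4 lower. Jun was at 1924 and 2037 against 1297 and 1500 CPM (-0.50 ± 0.10) and lower after PBS too (-0.65 ± 0.10), and Atf3 was at 169 and 178 against 266 and 259 CPM (0.59 ± 0.14), and higher after PBS by 0.63 ± 0.14. Gja5 and Fbln2 kept their calls without any 1 of the cGAMP libraries. Clu lost its call without replicate 2 of spontaneous cGAMP (0.088) and Edn1 without replicate 1 of it (0.15) or replicate 2 of implanted cGAMP (0.0958). Jun and Atf3 lost theirs without replicate 1 of implanted cGAMP (0.0568 and 0.0722) and without replicate 1 (0.0543 and 0.12) or 2 (0.117 and 0.122) of spontaneous cGAMP. Without these 3 libraries in turn 1, 0 and 0 immediate early genes were higher and 0, 1 and 0 lower.

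The selected cells carried the markers of ECs in every library. Pecam1, used by the rule, was at 1100 and 1146 CPM in the spontaneous and 1154 and 1023 CPM in the implanted cGAMP libraries. The junction protein Cdh5 was at 1226 and 1224 against 1063 and 1235 CPM, where the groups overlapped (-0.10 ± 0.08, adjusted p = 0.484). Of 16 endothelial identity genes 1 was higher and 7 lower in implanted ECs after cGAMP, the lowest being the lectin Clec14a at 347 and 458 against 184 and 240 CPM (-0.92 ± 0.14). With median-of-ratios scaling 4 were lower, and without replicate 1 of implanted cGAMP 4 were. Without replicate 1 and 2 of spontaneous cGAMP 3 and 2 were lower, with Clec14a at an adjusted p of 0.0533 in the latter setting.

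Transcripts of other cells remained in the selected ECs. The 18 myeloid markers in the tables summed to 87.8 and 97.9 CPM in the spontaneous and 434.5 and 138.8 CPM in the implanted cGAMP libraries, with 3 of the 10 tested called higher and none without replicate 1 of implanted cGAMP. Ptprc, which the rule used, was at 0.593 and 1.26 against 17.1 and 6.19 CPM, and Lyz2, the lysozyme of macrophages, at 4.73 and 10.8 against 65.7 and 10.2 CPM. The 16 lymphocyte markers in the tables summed to 5.87 and 12.5 against 65.1 and 48.3 CPM, and both tested ones, Cd3g and Trbc2, were called higher. Cd3g was not tested without replicate 1 of implanted cGAMP and was at 0.349 and 0.833 against 6.40 and 9.66 CPM. The 12 fibroblast markers summed to 65.0 and 40.1 against 122 and 122 CPM, with 3 of the 8 tested higher, among them Dcn at 6.41 and 2.18 against 19.6 and 26.6 CPM. The 15 lymphatic and lymph node type markers summed to 1195 and 781 against 2026 and 2476 CPM, with 3 of the 14 tested higher and none without replicate 1 or 2 of spontaneous cGAMP. The 13 mural markers summed to 271 and 160 against 322 and 179 CPM. The 23 mammary epithelial markers summed to 1359 and 1292 against 2408 and 603 CPM, where the 2 implanted libraries lay on either side of the spontaneous ones. Of the marker lists of these cells, the B cell gene Ms4a1 and the salivary-type genes Dcpp3 and Smr3a were at 0 in all 4 libraries. Secreted proteins of a salivary type were lower for 2 of 4, as Scgb2b27 at 153 and 30.0 against 1.32 and 0.062 CPM. The part of these transcripts in the gene differences above was not tested. In the setting without replicate 1 of implanted cGAMP, which held most of the myeloid transcripts, the lists not given in it above held 8 higher and 8 lower calls for extracellular matrix, 3 and 3 for tip cell markers, 4 and 0 for NF-kB targets, 1 and 2 for leukocyte adhesion, 0 and 2 for heat shock and 4 and 1 for arterial markers. With ECs of the lymphatic type left out, 13 ER stress genes were called higher and 1 lower, 1 capillary gene higher and 8 lower, and 9 type I interferon genes higher.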

How the data were processed

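Single-cell RNA sequencing (10x Chromium, 3′) had been performed on sorted CD31+ cells of 8 tumours. Per the submitters' processing notes, reads were mapped to mm10 with Cell Ranger 3.0.0 and processed in Seurat 3.1.1. Per the methods, the authors filtered on genes per cell (500), on the mitochondrial share (10%) and on cells per gene (3), and the deposited values are natural log values, ln(1 + UMIs × 10000 / total of the cell). Dividing the linear values of a cell by its smallest gave whole numbers for 100% of values (tolerance 0.01), so UMIs were recovered. A doublet caller was not run, and cells with 2 or more markers of other cells were left out by the selection. There were 0 numeric columns of no library. How the deposited cells were chosen is not settled, since their number lies between the 2 the supplement gives per library.

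Groups were taken from the labels. Levels were means of per-cell CPM over the selected ECs of a library. A gene had to reach 5 CPM in 2 or more libraries and was then tested on log2(CPM + 1) with limma 3.58.1 (eBayes with trend, R 4.3.3), 8 libraries in 1 fit with 4 residual degrees of freedom, and p values were adjusted by Benjamini-Hochberg over 10335 genes. Such a fold understates the change of low genes. A fold between the models of the deposited cells was not tested with a count model, since a mean per EC weights cells equally, and UMIs summed per library were an alternative. The fit was tested on simulated data.

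Genes named were the 12 with the largest called difference in each direction (at least 10 CPM, no overlap of libraries), up to 6 called and 2 most abundant members of each of 41 gene lists, the 6 with the largest change in the difference in each direction, the 3 most abundant markers of other cells per list, and genes the study named. Tgtp2, Ifnar1, Col4a2, Sparcl1, Hspg2, Pdia6, Ms4a1, Dcpp3, Smr3a and Ptprc fall outside this rule and were chosen after their values were seen. The comparison, lists and motifs were chosen with earlier results of these data known. Promoter windows and gene positions came from RefSeq and the annotation for GRCm38. Alternatives were other scaling, pseudocount, filter, cell selection, depth, model fit and leaving out each library in turn. Values of a few genes are not reported here.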

Additional observations from a re-analysis of the deposited data

Results flagged for a closer look

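The model difference (implanted minus spontaneous tumour ECs, log2) itself differed between cGAMP and PBS in 28 of the genes named here, by the test of the interaction in limma at an adjusted p under 0.05. It was smaller after cGAMP for interferon response genes, by -4.55 for Cxcl9, -3.59 for Ubd, -3.54 for Serpina3g, -3.27 for F830016B08Rik, -2.77 for Zbp1, -2.49 for Iigp1, -2.43 for Gbp5, -2.22 for Tgtp2 and -0.71 for Ifitm3. For antigen presentation genes it was -3.43 for H2-Aa, -3.24 for Cd74, -2.88 for H2-Ab1, -1.51 for H2-Q7 and -0.84 for Psmb10. It was also lower for Ptgs1 (-1.52), Tril (-1.03), Fbln2 (-0.85) and Cd34 (-0.54), where the difference after cGAMP was itself below 0. It was larger after cGAMP for Ccl20 (7.45, with 0 CPM in both implanted PBS libraries), Phgdh (2.86), Ctss (2.83), Fam46a (2.59), Angpt2 (2.03), Col13a1 (1.96), Ackr2 (1.54), Ramp3 (1.14), Timp1 (0.97) and Tnfaip2 (0.67). Without replicate 2 of spontaneous cGAMP the call of F830016B08Rik alone was kept among these 28, and the test called 2 genes in all. The difference shares its libraries with both comparisons of the models.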

How the results depend on the processing

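Of the values recomputed for the comparison after cGAMP 2433 kept their direction and side of the threshold, 433 lost and 26 gained a call and 7 reversed, and for the change in the difference 303 and 250 kept and lost theirs. All 7 reversals were in genes not called, namely Pecam1 (0.018 with median-of-ratios scaling, 0.0053 in cells with none of the 6 markers of other cells, and -0.134 to 0.0401 when 1 library was left out), Cdh5 (0.0401 with UMIs summed per library, and -0.205 to 0.011 when 1 library was left out) and Flt1 (-0.0847 after thinning, and -0.12 to 0.191 when 1 library was left out). Each of these ranges ran between the fits without 1 and without the other implanted cGAMP library. Of 122 named genes called after cGAMP 32 were called in each of the 21 alternatives, 87 without replicate 1 of implanted cGAMP, 51 without replicate 2 of spontaneous cGAMP, 73 after thinning and 116 with median-of-ratios scaling. After cGAMP and after PBS, 1298 and 765 genes were called against 654 and 323 without the filter on low values, 623 and 354 with limma without trend and robust, and 347 and 262 after thinning to 1000 UMIs. The 4 cGAMP libraries alone gave 837, and UMIs summed per library 1862 and 1367. The change in the difference was called in 82 genes, in 43 with all deposited cells and in 0 without the filter or with limma without trend and robust, where 1892 and 1188 genes had an unadjusted p under 0.05. Leaving out 1 library gave 196 to 1234 calls after cGAMP, 239 to 1109 after PBS and 2 to 127 for the difference, and a group then held 1 library that was assumed to vary like the others. Why the counts moved was not tested. With the replicate number as a block 1309, 766 and 82 genes were called. Samples with the same number did not deviate together (correlations -0.156 to 0.153), so the numbers were not taken as pairs. Depth limits low genes, since 3 UMIs equalled up to 0.425 CPM, and with 2 mice per group a p that misses the threshold does not show that levels were equal.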

Other observations

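Calls after cGAMP were also found in gene groups not described above. Of 16 shear-responsive and nitric oxide genes 4 were higher and 3 lower in implanted ECs. Ddah1, which degrades an inhibitor of nitric oxide synthase, was at 25.5 and 27.3 CPM in the spontaneous and 73.2 and 50.8 CPM in the implanted libraries (1.18 ± 0.15, adjusted p = 0.00199) and higher after PBS by 1.32 ± 0.15. Ass1, an enzyme of arginine supply, was at 22.1 and 29.6 against 43.8 and 41.7 CPM (0.72 ± 0.19), and Cavin2, a coat protein of caveolae, at 355 and 427 against 262 and 299 CPM (-0.48 ± 0.13). Ddah1 kept its call without any 1 of the cGAMP libraries, whereas Ass1 lost its call without each of them (adjusted p 0.0613 to 0.19). Cavin2 lost its call without replicate 1 of implanted cGAMP (0.129), without replicate 2 of spontaneous cGAMP (0.245) and under median-of-ratios scaling (0.0683). Of 16 genes of cytosolic DNA sensing 3 were higher, among them the nucleotide hydrolase Samhd1 at 217 and 228 against 324 and 320 CPM (0.53 ± 0.15, adjusted p = 0.0484), a call lost without any 1 of the 4 libraries (0.0939 to 0.184).

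Of 23 genes of cholesterol and fatty acid synthesis 3 were higher and 1 lower. The lower gene was the desaturase Scd2, at 69.2 and 62.7 against 43.1 and 38.1 CPM (-0.69 ± 0.12), which lost its call without replicate 1 of spontaneous cGAMP (0.0519). Among 14 venous and stalk-like markers 3 were higher and 4 lower. When replicate 1 of implanted cGAMP was left out, 3 shear-responsive genes were higher and 0 lower, 1 DNA sensing gene was higher, and the counts were 0 and 1 for cholesterol and fatty acid synthesis and 0 and 5 for venous markers. Plac8 was at 13.7 and 12.7 against 86.2 and 28.3 CPM (1.83 ± 0.44), the proteoglycan Vcan at 17.3 and 8.49 against 61.0 and 22.1 CPM (1.52 ± 0.43), and the venous receptor Ephb4 at 112 and 103 against 70.6 and 80.4 CPM (-0.50 ± 0.10). Both higher genes stood further apart in replicate 1 of implanted cGAMP and lost their calls without it (0.125 and 0.188). Of 14 lymphatic and lymph node type markers 3 were higher, among them the lymphatic transcription factor Prox1 at 20.9 and 22.5 against 39.7 and 60.7 CPM (1.15 ± 0.33) and Pdpn at 21.1 and 14.9 against 51.7 and 47.3 CPM (1.43 ± 0.35). Prox1 and Pdpn lost their calls without replicate 2 of spontaneous cGAMP. The share of ECs of the lymphatic type differed in the same direction. Prox1 is among the genes that define this type, so the share is no independent evidence for it.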
